A study of Mus musculus with 8 samples.

Results

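The endoplasmic reticulum (ER) is where secreted and membrane proteins fold, and 38 genes of its folding, degradation and stress machinery were followed here in mouse marginal zone B cells. They were taken by symbol from the deposited table of 23997 genes, where all 38 were present. The study sequenced RNA from 8 libraries of marginal zone B cells of C57BL/6 mice, 4 labelled with the genotype ACKR3+ and 4 with ACKR3-, and the design text counts 4 mice in each group. Library titles name the same groups GFPposi and GFP-. The labels say neither how GFP is tied to the chemokine receptor gene Ackr3 nor the age or sex of the animals. The table does not keep the libraries apart: each gene has 1 estimated fragment count in each of 2 conditions, called q1 and q2, and no label or header says which of them is ACKR3+. All directions are therefore given by column name. Since each condition has 1 pooled value, no difference has a replicate check, no test was made, and the spread between mice cannot be seen.

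Proteins entering the ER are bound by the Hsp70 chaperone BiP and the Hsp90 chaperone GRP94, receive disulfide bonds from protein disulfide isomerases, and, when glycosylated, cycle on the lectin chaperones calnexin and calreticulin. Chains that fail to fold are sent back to the cytosol by ER-associated degradation (ERAD) and destroyed by the proteasome. When unfolded protein accumulates, the sensors IRE1, PERK and ATF6 start the unfolded protein response, in which the transcription factors XBP1, ATF4 and cleaved ATF6 raise these genes. B cells are known to expand this machinery when they become antibody-secreting plasma cells, and marginal zone B cells are known to make that step quickly.

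Many genes of this response carry the ER stress element (ERSE), to which NF-Y and ATF6 or XBP1 bind, and its sequence is shown because 10 members held it. The element, CCAAT and CCACG with any 9 bases between them, was searched on both strands of RefSeq promoters (GRCm38.p6, 250 bases before to 50 after the start site), which were given for 33 of the 38 members. Hyou1, Manf, Derl1, Atf6 and Ppp1r15b had none. It was present in 10 of these 33 members (30.3%) and in 39 of all 32851 promoters (0.119%). Among the 9383 promoters of genes with at least 100 fragments, 14 held it, and 10 of those 14 belonged to members. Members were chosen as genes of this response, so these shares follow in part from that choice and are no test. In the lines below each element is read on the strand where it runs from CCAAT to CCACG. Capitals mark these 2 blocks, and the 9 bases between them and the flanks are in lower case.
Creld2: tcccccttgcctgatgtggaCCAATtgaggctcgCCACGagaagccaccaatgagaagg
Derl3: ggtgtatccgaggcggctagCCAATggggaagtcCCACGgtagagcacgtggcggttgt
Hsp90b1, distal: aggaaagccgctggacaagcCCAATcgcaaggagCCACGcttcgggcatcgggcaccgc
Hsp90b1, proximal: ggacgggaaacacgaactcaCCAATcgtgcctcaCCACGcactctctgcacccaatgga
Pdia6: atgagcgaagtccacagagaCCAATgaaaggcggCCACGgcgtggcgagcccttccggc
Calr: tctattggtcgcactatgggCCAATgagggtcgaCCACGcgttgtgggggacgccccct
Dnajc3: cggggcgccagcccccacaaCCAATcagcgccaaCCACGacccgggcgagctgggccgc
Hspa5: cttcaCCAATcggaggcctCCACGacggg
Canx: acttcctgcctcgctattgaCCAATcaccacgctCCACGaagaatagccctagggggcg
Syvn1: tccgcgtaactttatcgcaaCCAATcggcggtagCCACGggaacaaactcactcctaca
Ero1lb: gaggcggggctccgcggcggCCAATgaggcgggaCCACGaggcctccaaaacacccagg

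These stretches lie at chr15:88819500-88819558 for Creld2 and chr10:75893222-75893280 for Derl3, both read from the minus strand. For Hsp90b1 they lie at chr10:86705618-86705676 (minus strand, the gene's own) and chr10:86705513-86705571 (plus strand). The stretch of Pdia6 is at chr12:17266471-17266529, that of Calr at chr8:84847055-84847113 and that of Dnajc3 at chr14:118937807-118937865, all on the plus strand. Hspa5, at chr2:34772020-34772048 on the plus strand, is shown with shorter flanks because a GENCODE transcript already covers the site. Canx lies at chr11:50325780-50325838 (minus), Syvn1 at chr19:6046512-6046570 (plus) and Ero1lb at chr13:12565662-12565720 (minus). The first base of the element, read along the gene, was between 212 and 44 bases before the RefSeq start site. Hsp90b1 was the member with 2 elements, in opposite orientations, as its promoter upstream of the first annotated exon shows (chr10:86705510-86705694, gene strand, capitals as above or their reverse complement).
Hsp90b1 promoter: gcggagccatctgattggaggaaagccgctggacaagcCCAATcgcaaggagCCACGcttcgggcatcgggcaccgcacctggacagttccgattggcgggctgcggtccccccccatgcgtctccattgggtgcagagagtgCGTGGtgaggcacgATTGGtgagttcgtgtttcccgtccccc

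A second form, ERSE-II (ATTGG and CCACG with any 1 base between them, both strands), was present in the members Herpud1 and Dnajb11 and in 12 of 32851 promoters (0.0365%). Herpud1 also held TGATGCAA, a core of the composite site of ATF4, on the opposite strand, where it reads TTGCATCA along the gene. The 91 bases that hold both (chr8:94386307-94386397, plus strand) are shown with the fixed letters in capitals.
Herpud1: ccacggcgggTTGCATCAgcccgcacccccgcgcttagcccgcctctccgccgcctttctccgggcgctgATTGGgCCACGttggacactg
No other of the 33 members held TGATGCAA (0.895% of all promoters), and none held TGATGAAA (1.02%) or TGACGTGG (0.676%), a core bound by XBP1 and ATF6, within this window. These are matches of letters, and binding was not measured.

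**Figure D1:**
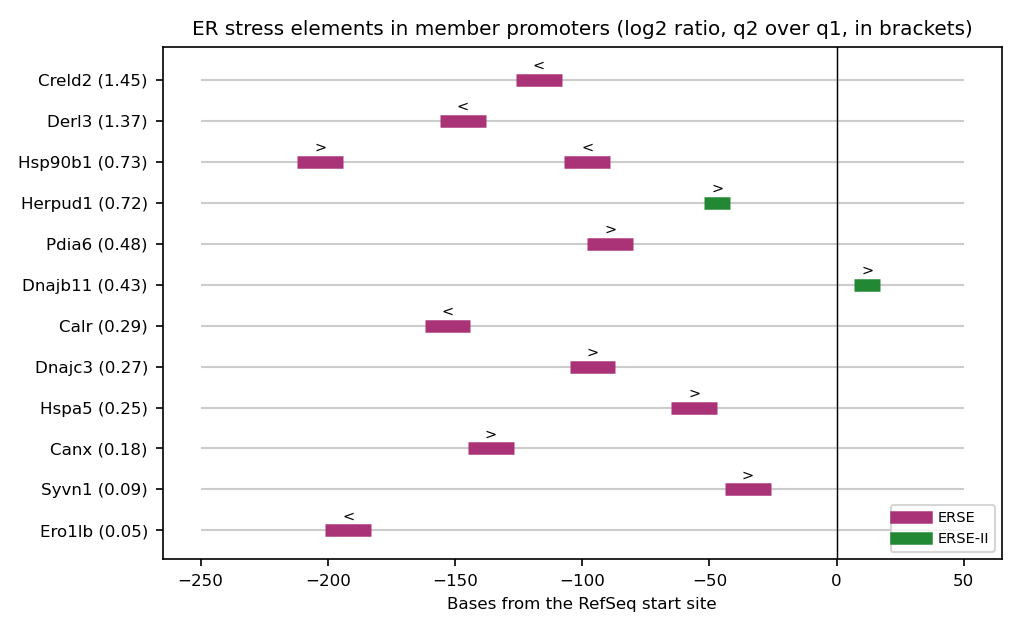
Position of each ERSE (purple) and ERSE-II (green) in the promoters of 12 members, in bases from the RefSeq start site, with > for an element on the gene strand and < for the opposite strand. Genes are ordered by the log2 ratio of q2 over q1 printed beside them, which runs from 0.05 for Ero1lb to 1.45 for Creld2.

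Column totals were nearly equal (log2 ratio -0.02), and the depth of each library is unknown. Log2 ratios are q2 over q1 with a pseudocount of 1, for the 9582 genes that reached 100 fragments in 1 column or both, and their median was 0.0005. The value after ± is the SD of the log2 ratio that follows from the variances deposited with the counts, which was between 0.18 and 0.44 for the members. Ackr3 itself had 1030 fragments in q1 against 149 in q2. The 7 marginal zone markers, among them Cr2 and Cd1d1, were abundant in both columns, with 144571 and 120743 fragments in sum. All 7 were higher in q1, where 49.8% of all genes were, with a median log2 ratio of -0.35.

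Of the 38 members, 36 reached 100 fragments and were compared. In q2, 27 of these 36 were higher and in q1 9 were, where 50.2% of all 9582 genes were higher in q2 and 49.8% in q1. The median log2 ratio of the members was 0.21. At least 2-fold differences toward q2 were found for 2 of 36 members (Creld2 and Derl3), against 1.84% of all genes, and toward q1 for 0 of 36, against 0.438%. A difference of at least 1.5-fold toward q2 was found for 6 of 36 (Creld2, Derl3, Manf, Sdf2l1, Hsp90b1 and Herpud1), against 3.39% of all genes, and toward q1 for 0 of 36, against 1.58%. By a rule of more than 2 deposited SD, added after the data were seen, 11 members were higher in q2 (4.15% of all genes) and 1, Ppp1r15a, was higher in q1 (2.11%). Of the 30 members that reached 1000 fragments, 23 were higher in q2, where 49.2% of all genes at that level were, and 1, Creld2, was at least 2-fold higher, against 0.452%. Together the members held 0.896% of all fragments in q1 and 1.03% in q2.

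**Figure D2:**
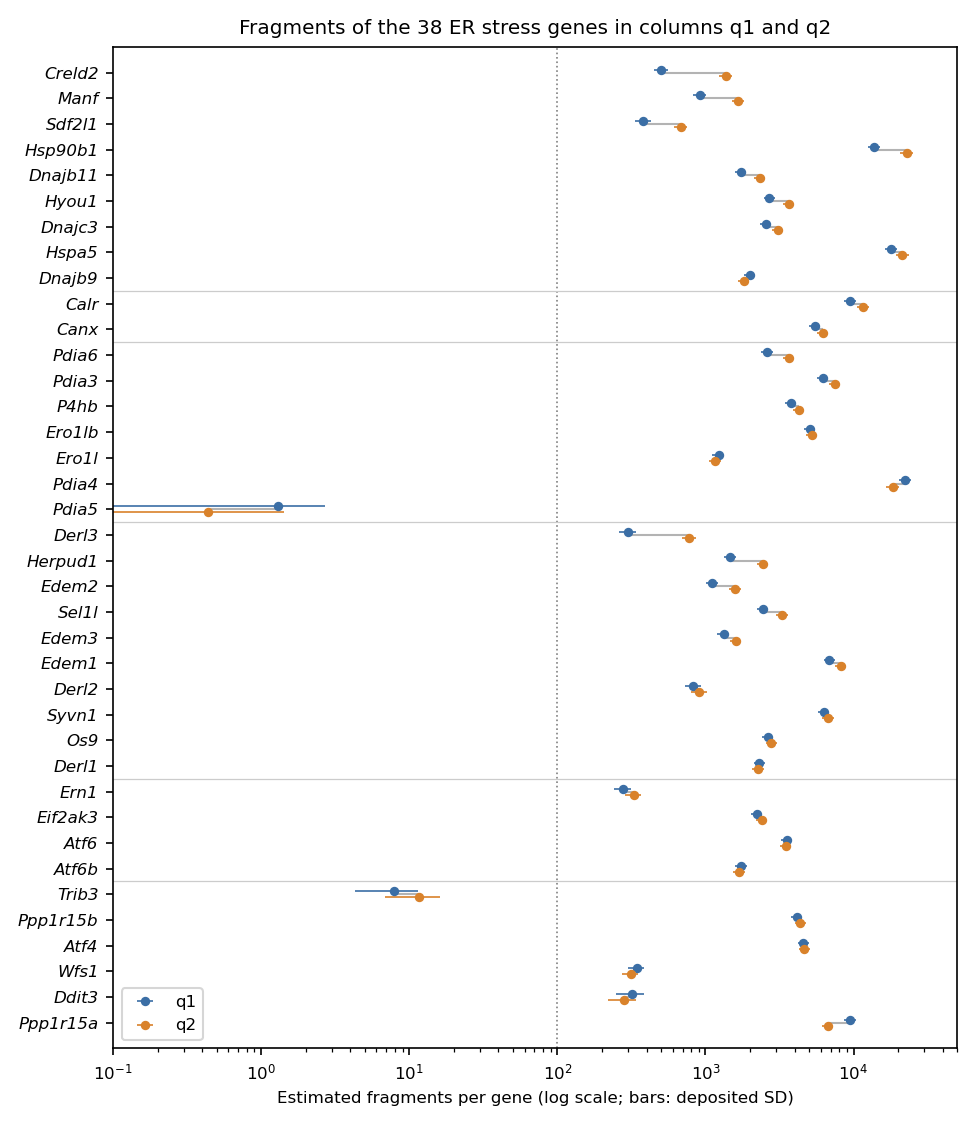
Estimated fragments of the 38 members in q1 (blue) and q2 (orange) on a log axis, grouped by role, with the deposited SD as bars and the minimum of 100 fragments dotted. A bar that would pass the left edge ends there. Pdia5 and Trib3 lie below the minimum in both columns, and Creld2 and Derl3 show the widest gaps between columns among the genes compared.

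The Hsp70 and Hsp90 chaperones with their partners were the role group with the highest median, 0.43 over 9 genes. Of these, 8 were higher in q2, where 50.2% of all genes were. More than 2 SD above 0 lay 6 of the 9, against 4.15% of all genes. Hspa5, which encodes BiP, the ER Hsp70 (chromosome 2, 34771970 to 34777547), had 18027 fragments in q1 against 21393 in q2, a log2 ratio of 0.25 ± 0.20. Hsp90b1, which encodes GRP94 (chromosome 10, 86690209 to 86705509), had 13769 and 22845 fragments, at 0.73 ± 0.20. The difference between the ratios of Hsp90b1 and Hspa5 was 0.48 ± 0.28, within 2 SD. The ratio of Hsp90b1 passed 1.5-fold and 2 SD, and that of Hspa5 passed neither.

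Creld2, Manf and Sdf2l1 encode smaller ER proteins and were less abundant. Creld2, a secretory-pathway protein with thiol-reactive sites (chromosome 15, 88819646 to 88826683), had 503 fragments in q1 against 1373 in q2, a 2.73-fold difference at 1.45 ± 0.21. Manf, a BiP-binding protein that is also secreted (chromosome 9, 106838312 to 106891979), had 914 and 1670 fragments, at 0.87 ± 0.19. Sdf2l1, a partner of the ER Hsp40 proteins (chromosome 16, 17130138 to 17132383), had 381 and 685 fragments, at 0.84 ± 0.23. These 3 were the largest ratios of the chaperone group, and each lay above the 95th percentile of all compared genes, 0.42. The exons of Manf overlap those of Dcaf1 and Rbm15b, and those of Hsp90b1 overlap 3 other annotated genes, so their fragments may be shared. Exons of Pdia3, Pdia4, Pdia6, Syvn1, Derl2, Dnajb9, Eif2ak3 and Ppp1r15b also overlap another annotated gene, with the same limit. Sdf2, the paralog of Sdf2l1 outside the member list, had 1024 and 933 fragments, at -0.13 ± 0.20, and the difference between the paralogs was 0.98 ± 0.30.

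Among the J-domain co-chaperones, which deliver clients to BiP, Dnajb11 (ERdj3) had 1730 and 2334 fragments, at 0.43 ± 0.18. Dnajc3 (p58IPK) had 2553 and 3078, at 0.27 ± 0.18. Dnajb9 (ERdj4), a co-chaperone that restrains IRE1 and is known as an XBP1 target, had 1995 in q1 and 1814 in q2, at -0.14 ± 0.19, and was the member of this group that was higher in q1. The ratio of Creld2, the highest of the chaperone group, exceeded that of Dnajb9, the lowest, by 1.58 ± 0.28. A gap between extremes is large by selection. Hyou1, the large Hsp70-like chaperone that exchanges nucleotide on BiP, had 2707 and 3647 fragments, at 0.43 ± 0.18.

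Both lectin chaperones were slightly higher in q2. Calr, the soluble calreticulin, had 9509 and 11660 fragments, at 0.29 ± 0.18, and Canx, the membrane-bound calnexin, had 5491 and 6202, at 0.18 ± 0.18. Their ratios differed by 0.12 ± 0.26, and neither lay more than 2 SD from 0.

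**Figure D3:**
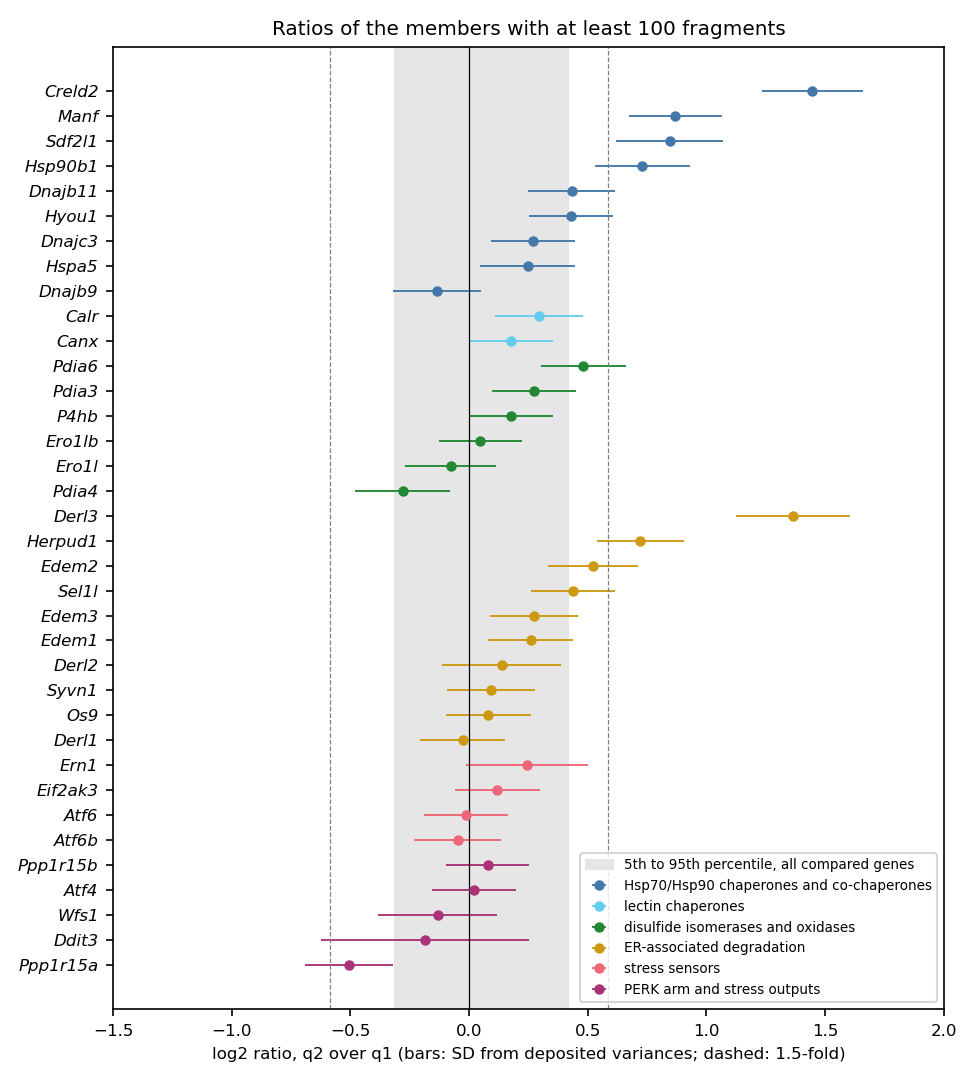
Log2 ratio of q2 over q1 for the 36 members compared, by role, with the SD from the deposited variances, over a grey band from the 5th (-0.31) to the 95th percentile (0.42) of all 9582 genes. The 6 largest ratios, from 0.72 to 1.45, belong to chaperone and ERAD genes, and Ppp1r15a lies left of the band at -0.51.

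The disulfide isomerases and oxidases did not share a direction: 4 of 6 compared were higher in q2, where 50.2% of all genes were. Their median was 0.11. Pdia4, an isomerase also called ERp72 (chromosome 6, 47796141 to 47813430), had 22407 fragments in q1 against 18458 in q2, at -0.28 ± 0.20. Pdia6 (P5) had 2618 and 3656 fragments, at 0.48 ± 0.18. The difference between Pdia6 and Pdia4, the highest and lowest ratios of the 6, was 0.76 ± 0.27. Pdia3 (ERp57), which works with calnexin and calreticulin, had 6211 and 7504, at 0.27 ± 0.18. P4hb, the classical isomerase PDI, had 3776 and 4272, at 0.18 ± 0.18. Thus the most abundant isomerase was lower in q2 while 3 others were higher, and only Pdia6 lay more than 2 SD from 0. Pdia5 was at 1.29 and 0.43 fragments, too few to compare. The oxidases that reoxidize PDI were close in both columns: Ero1l had 1226 and 1162 fragments, at -0.08 ± 0.19, and Ero1lb, the form known from secretory cells, had 5069 and 5239, at 0.05 ± 0.18.

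ERAD genes were higher in q2 for 9 of 10 members, where 50.2% of all genes were, with a median of 0.27. Of the 10, 4 lay more than 2 SD above 0, against 4.15% of all genes. Derl3, a derlin of the channel through which substrates leave the ER (chromosome 10, 75893413 to 75895941), had 300 fragments in q1 against 776 in q2, a 2.58-fold difference at 1.37 ± 0.24. Its paralogs stayed near equal: Derl1 had 2317 and 2274 fragments, at -0.03 ± 0.18, and Derl2 had 826 and 908, at 0.14 ± 0.25. The ratio of Derl3 exceeded that of Derl1 by 1.39 ± 0.30 and that of Derl2 by 1.23 ± 0.35. Within the derlin family Derl3 supplied 8.73% of fragments in q1 (exact 95% interval 7.79 to 9.71%) and 19.6% in q2 (18.4 to 20.9%). The intervals treat rounded estimates as counts and cover counting error only. Per kilobase of transcript these shares were 19.8% and 38.9%.

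Herpud1, a membrane protein that assembles the ERAD ligase complex (chromosome 8, 94386438 to 94395377), had 1475 fragments in q1 against 2434 in q2, at 0.72 ± 0.18. Its paralog Herpud2 had 912 and 881 fragments, at -0.05 ± 0.20, and the difference between the paralogs was 0.77 ± 0.27. Of that complex, Sel1l, the adaptor, had 2433 and 3294, at 0.44 ± 0.18. Syvn1, the ubiquitin ligase HRD1, had 6312 and 6729, at 0.09 ± 0.18. Os9, a lectin that delivers glycoproteins to Sel1l, had 2640 and 2793, at 0.08 ± 0.18. The adaptor and Herpud1 thus lay more than 2 SD above 0, and the ligase and the lectin did not.

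The EDEM proteins trim mannose from misfolded glycoproteins and mark them for disposal. Edem2 had 1106 and 1588 fragments, at 0.52 ± 0.19, Edem3 had 1326 and 1602, at 0.27 ± 0.19, and Edem1 had 6867 and 8218, at 0.26 ± 0.18. All 3 were higher in q2, and Edem2 stood apart from Edem1 by 0.26 ± 0.26 and from Edem3 by 0.25 ± 0.27, both within 2 SD. Edem2 supplied 11.9% of EDEM fragments in q1 and 13.9% in q2, or 26.5% and 30.2% per kilobase of transcript.

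**Figure D4:**
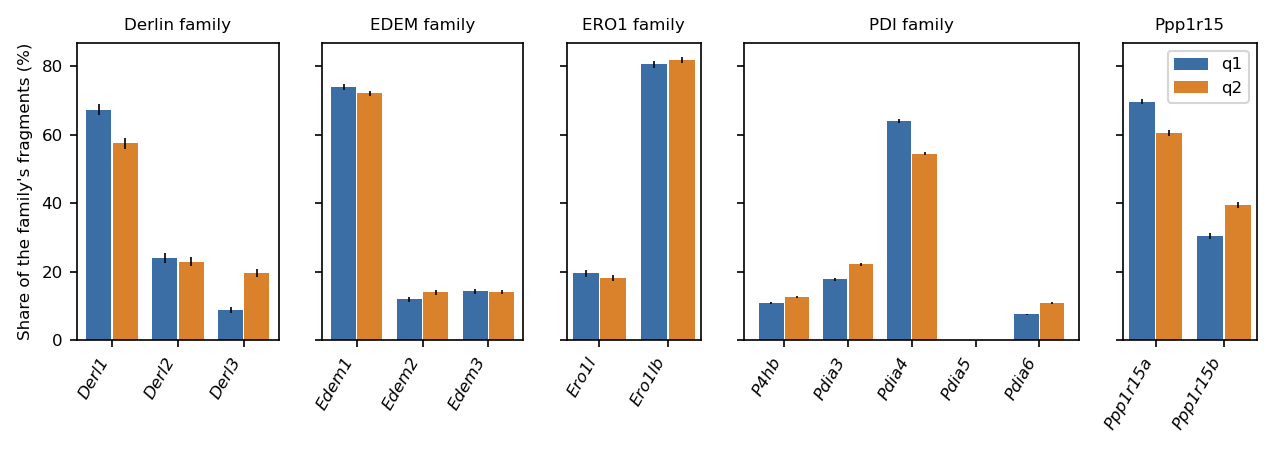
Share of each gene in the fragments of its family, in percent, for q1 (blue) and q2 (orange), with exact 95% intervals for counting error. The share of Derl3 goes from 8.73% in q1 to 19.6% in q2, that of Pdia4 from 64.0% to 54.5% and that of Ppp1r15a from 69.6% to 60.4%, while that of Ero1lb is 80.5% and 81.8%.

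The sensors differed little. Ern1, which encodes IRE1, the kinase and RNase that splices Xbp1, had 278 and 329 fragments, at 0.24 ± 0.26. Eif2ak3, which encodes PERK, had 2220 and 2409, at 0.12 ± 0.18. Atf6, the membrane-bound factor cleaved under stress, had 3536 and 3503, at -0.01 ± 0.18, and its relative Atf6b had 1752 and 1693, at -0.05 ± 0.18. None of the 4 lay more than 1 SD from 0. The group's median of 0.05 became -0.01 without Ern1, which has fewer than 500 fragments.

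In the PERK arm the translation-controlled factor Atf4 was nearly equal, with 4593 and 4656 fragments, at 0.02 ± 0.18. Ddit3, the CHOP factor downstream of ATF4, had 318 and 280, at -0.19 ± 0.44, and shares exons with 2 other annotated genes. Trib3, an ATF4 and CHOP target, had 7.88 and 11.5 fragments and was not compared. Ppp1r15a (GADD34), the stress-induced subunit that dephosphorylates eIF2α (chromosome 7, 45522916 to 45526268), had 9481 fragments in q1 against 6678 in q2, at -0.51 ± 0.19, a 1.42-fold difference. It was the member with the most negative ratio, at the 2.11th percentile of all compared genes, and its exons overlap those of Tulp2. The constitutive paralog Ppp1r15b had 4138 and 4371 fragments, at 0.08 ± 0.18, and the paralogs differed by -0.58 ± 0.26. Wfs1, the ER membrane protein wolframin, had 343 and 313, at -0.13 ± 0.25. The median of the 5 compared genes in the group of PERK arm and stress outputs was -0.13, the value of Wfs1. It was 0.02 over the 3 with at least 500 fragments.

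Levels between members were compared as fragments per kilobase of the longest GENCODE transcript. Pdia4 was the highest member in both columns, at 9340 in q1 and 7694 in q2. In q1 it was followed by Hspa5 (4909), Calr (4354) and Hsp90b1 (4273), and in q2 by Hsp90b1 (7090), Hspa5 (5826) and Calr (5339). Creld2 moved from rank 28 of 38 in q1, at 368, to rank 16 in q2, at 1005. Ern1, at 39.96 and 47.3, was the lowest member compared, far below Eif2ak3 (492 and 534) and Atf6 (488 and 483). Of 35 pairs of neighbours in this order, 30 were within 2 SD of each other in q1 and 30 in q2, so that adjacent ranks are mostly not distinct. In q1 the gaps between Pdia4 and Hspa5 and between Ppp1r15a and Atf4 were among the 5 that passed 2 SD.

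The ratios were then set beside the promoter elements. All 10 members with an ERSE were higher in q2, where 27 of the 36 members compared and 50.2% of all genes were. Their median was 0.28 and their range ran from 0.05 to 1.45, and 3 of them were at least 1.5-fold higher. The ratios of Ero1lb, Syvn1, Canx, Hspa5, Dnajc3 and Calr lay within 2 SD of 0. On the gene strand alone 6 members held the element. Of the 21 compared members with a promoter but no ERSE, 14 were higher in q2 against 7 in q1, and 2 were at least 1.5-fold higher in q2, where 3.39% of all genes were. Their median was 0.14, and their range ran from -0.51 to 0.84. The 2 ranges overlap widely. Only 4 genes outside the member list both held the element and reached 100 fragments, namely Adcy3, Alg12, Hnrnpa3 and Pan2. The element of Alg12 is the same site as that of Creld2, between the start sites of both genes, and beside it stand ratios of -0.02 for Alg12 and 1.45 for Creld2. Of the 4, 1 was higher in q2, and their ratios ran from -0.23 to 0.19. The 2 members with ERSE-II stood at 0.72 (Herpud1) and 0.43 (Dnajb11). Both are counted among the 21 without an ERSE, where Herpud1 is 1 of the 2 at least 1.5-fold higher.

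Other genes of the same machinery formed 5 lists of 85 genes, of which 71 were compared. In q2, 40 of these were higher, where 50.2% of all genes were. By 2-fold or more 4 were higher in q2, where 1.84% of all genes were. That count of 4 was 7 with a minimum of 20 fragments and 2 with a minimum of 500. In q1, 31 were higher, where 49.8% of all genes were. By 2-fold or more 1 was higher in q1, where 0.438% of all genes were, and 0 with a minimum of 500. The median of the 71 genes was 0.05. Among ER oxidoreductases, with a median of 0.09 over 13 genes, Txndc5 (ERp46) had 1994 and 6401 fragments, at 1.68 ± 0.19, and Prdx4, a peroxiredoxin of the ER lumen, had 194 and 445, at 1.20 ± 0.27. Txndc11 stood at 0.64 ± 0.65 and Erp44, which retains Ero1 in the ER, at 0.45 ± 0.18. The ratio of Txndc5 was above that of every member.

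Other folding factors had a median of 0.11 over 12 genes, led by Hspa13, an Hsp70-related protein, at 0.58 ± 0.22, and Fkbp2, a prolyl isomerase, at 0.45 ± 0.26. Cnpy3, a chaperone for Toll-like receptors, stood at -0.31 ± 0.18 and Cnpy2 at 0.21 ± 0.25. Glycoprotein quality control genes were nearly equal, with a median of 0.01 over 6 genes. Man1b1, a mannosidase, stood at 0.33 ± 0.18, whereas the glucosidases Mogs and Ganab and the folding sensor Uggt1 were at -0.04 ± 0.19, 0.01 ± 0.18 and 0.02 ± 0.18. Other ERAD factors had a median of 0.08 over 21 genes, none 1.5-fold apart, with Erlin1 at 0.29 ± 0.22, the ubiquitin-conjugating enzyme Ube2j1 at 0.28 ± 0.18, Vimp at 0.27 ± 0.21 and Ubxn4 at 0.18 ± 0.18.

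Stress signalling genes outside the member list had a median of -0.09 over 19 genes. Of these, 13 were higher in q1, where 49.8% of all genes were. Xbp1 had 2142 fragments in q1 against 4354 in q2, at 1.02 ± 0.18, and Creb3l2, a relative of Atf6 that is also cleaved in the Golgi, had 229 and 454, at 0.99 ± 0.26. Atf5 stood at 1.05 ± 1.26, an error as large as the ratio. In the other direction Atf3, which is induced by many stresses, had 403 and 54.2 fragments, at -2.87 ± 0.40. The table gives genes and not isoforms, so the spliced form of Xbp1 could not be read.

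**Figure D5:**
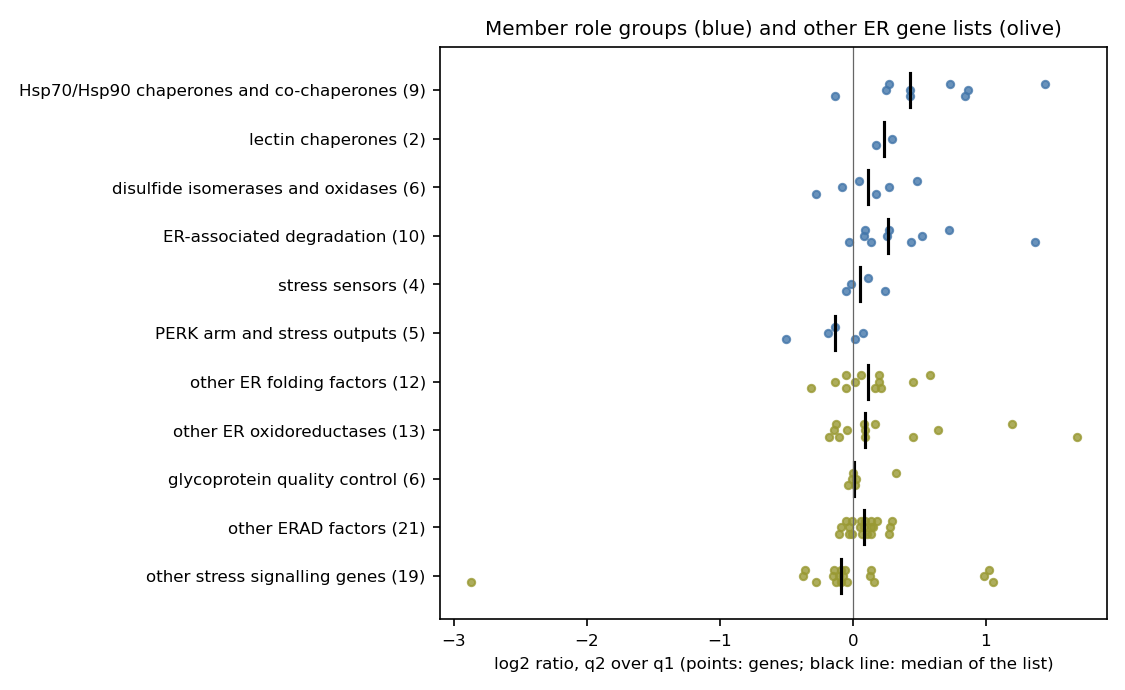
Log2 ratio of q2 over q1 for each compared gene (points) and the median (black line) in the 6 role groups of the members (blue) and in 5 lists of other ER genes (olive), with the number of genes in brackets. Medians run from -0.13 for the PERK arm and stress outputs to 0.43 for the chaperone group. The outlying points to the far left and right are Atf3 at -2.87 and Txndc5 at 1.68.

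Plasma cell markers differed in size and direction between the columns. Of 9 plasma cell markers, 8 were compared and 7 of these were higher in q2, where 50.2% of all genes were. The list held 21702 fragments in q1 against 51530 in q2, mostly through Igj with 3234 and 33006. Sdc1, which marks plasma cells, had 43.9 and 484 fragments, and Tnfrsf17 had 4.65 and 62.2. Prdm1, the factor that sets plasma cell fate, stood at 0.25 ± 0.24 and Mzb1 at 0.08 ± 0.18. Irf4 was higher in q1 at -0.28 ± 0.18. All 7 germinal center markers and all 12 cycling cell markers were also higher in q2, summing to 613 and 2759 and to 2680 and 10208 fragments. Marginal zone markers went the other way: Cd9 stood at -0.86 ± 0.19, Cd1d1 at -0.77 ± 0.18 and S1pr3 at -0.62 ± 0.18, so that 3 of 7 were at least 1.5-fold and more than 2 SD higher in q1, where 1.58% of all genes were at least 1.5-fold higher. The part of these 4 lists in the member ratios was not tested, and in pooled RNA more cells of a type and more RNA per cell cannot be told apart.

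Each list of markers of other blood cells summed to fewer fragments than the marginal zone and plasma cell lists. Macrophage and monocyte markers summed to 1411 and 972 fragments. Of 7 compared, 5 were higher in q1, where 49.8% of all genes were, with a median log2 ratio of -1.24. By 2-fold or more 4 were higher in q1, against 0.438% of all genes, and 1 in q2, against 1.84%. T cell markers summed to 850 and 1111, NK cell markers to 337 and 299.7, dendritic cell markers to 1366 and 1686, neutrophil markers to 22.8 and 38.8 and erythroid markers to 89.5 and 80.7. All 3 dendritic cell markers compared were higher in q2, where 50.2% of all genes were. Of these, 1 was at least 1.5-fold higher, against 3.39% of all genes. No marker on these lists was at 0 in either column, and their part in the member ratios was not tested.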

How the data were processed

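Total RNA was taken up in Trizol and turned into libraries by an Illumina TruSeq kit, per the labels' protocols. The tools listed in the submitters' processing notes are Cuffdiff 2.2.1, TopHat2 2.0.14 and cutadapt 1.8.1, and the build is mm10. Annotation, strand setting, filters and scaling between conditions: each is not given in the sources used here. The deposited table holds, per its column names, an estimated count of fragments per gene for each of 2 pooled conditions. Its other columns hold the authors' variances, with a part from dispersion and a part from isoform assignment. The part from isoform assignment was 0 for every gene. Both columns were mapped to no group. The depth of a library is unknown. Intervals treat the rounded estimates as counted fragments, and cover counting error only in that sense.

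From these, log2 ratios (pseudocount 1, minimum of 100 fragments in the higher column) and first-order SDs were computed with Python 3.11.15, numpy 2.4.6 and pandas 2.3.3, and exact (Clopper-Pearson) 95% intervals with scipy 1.17.1. Whether a deposited variance refers to 1 library or to the pooled value is not stated, so ± values are not a spread between mice, and SDs of differences treat genes as independent. Coordinates, transcript lengths and exon overlaps were those of GENCODE M21 (GRCm38, the assembly of mm10), where Ddit3 has 2 loci and the larger was used. Promoters came from RefSeq GRCm38.p6, matched by symbol or older symbol. No protein table was used. The calculation was tested on simulated data. Named genes were all 38 members, up to 4 per list of other ER genes by absolute ratio, Xbp1, and markers; Hspa5 and Herpud1 among the printed sequences, the paralogs Sdf2 and Herpud2, and the markers named were picked after their values were seen. Members and lists were chosen with earlier results of these data known. Differences between the ratios of paired genes were not in the plan. Alternatives were other minimums, pseudocounts, scalings, size rules, lengths and strands. The result of 1 marker list is not reported here.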

Additional observations from a re-analysis of the deposited data

How the results depend on the processing

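No paired analysis was possible because the libraries of a condition are merged into 1 estimate. The planned fits over libraries, with either normalization, a replicate block or a library left out, were therefore not run. Pseudocounts of 0 and 10, equal totals and scaling by the median ratio moved no member's ratio by more than 0.026, and all 144 recomputed ratios stayed within counting error. Such settings could shift the ratios little, because the log2 ratio of column totals was -0.02 and the median log2 ratio 0.0005. The spread between mice is not covered by them. Under these 4 settings 27 or 28 members were higher in q2. The count of 2 members at least 2-fold higher in q2 became 6 with a 1.5-fold rule, 11 with more than 2 deposited SD in place of a size rule, and 1 with a minimum of 1000 fragments. In q1 it was 0, and 1 with the SD rule. The SD rule, the minimum of 1000 and the removal of members whose exons overlap another gene were chosen after seeing the data. That removal left 19 members higher in q2 and 5 in q1, in place of 27 and 9. With a minimum of 500 the median of the sensors turned to -0.013, since fewer genes were compared. That of the PERK arm and stress outputs turned to 0.020. Among other ER genes, 7 were at least 2-fold higher in q2 with a minimum of 20 and 2 with 500, and 0 in q1 with 500. Per kilobase, family shares in q1 and q2 were 19.8% and 38.9% for Derl3, 26.5% and 30.2% for Edem2, and 66.2% and 56.7% for Pdia4. On the gene strand alone 6 members held the ERSE and 0 held TGATGCAA.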
